A study of Homo sapiens with 6 samples.

Results

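The transcriptome of the ovarian cancer line ES-2 was set against those of OVCAR-3 and SKOV-3. ES-2 gave 2 of the 6 arrays of the series, and the other lines gave 2 arrays each. A gene was called between ES-2 and another line at a limma adjusted p under 0.05 and a difference of at least 2-fold. It is described as apart in ES-2 when it was called against both lines in the same direction. Of 8955 genes tested, 633 were apart, 390 of them higher in ES-2 and 243 lower. These genes are described by name, role, place in the genome and promoter sequence.

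In every line 1 array was made after transfection with the control miR-blank and 1 after transfection with the microRNA miR-135a-3p, so no array came from untransfected cells. Transcripts were measured on Affymetrix arrays after labelling of total RNA, and the values are log2 signals, on which a difference of 1 is 2-fold. Dose, carrier and harvest time are not given in the sources used here. Every group is a single established line, and nothing states that its 2 arrays came from separate cultures. The p-values therefore measure only the spread of a line's 2 arrays about the transfection effect common to the lines, which may be technical. Per-array values are given with the miR-blank array first and the miR-135a-3p array second.

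As background, ES-2 was established from a tumour described as clear cell carcinoma of the ovary, OVCAR-3 and SKOV-3 from the ascites of ovarian adenocarcinomas. Epithelial cells are held together by tight junctions, adherens junctions and desmosomes. Cells in a mesenchymal state carry vimentin filaments, lay down fibronectin and other matrix, and express repressors such as SNAI2, which bind E-box sequences at epithelial genes. Carcinoma lines range from the epithelial to the mesenchymal end of this axis.

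Across all genes tested, the median difference was -0.02 from OVCAR-3 and -0.02 from SKOV-3. The 2 arrays of ES-2 correlated at 0.987 over all probe sets, and ES-2 arrays correlated with arrays of the other lines at 0.942 to 0.953. Array medians lay between 4.16 and 4.23. The values carry no detection calls, so a signal near or below these medians cannot be told from background, and a fold against it depends on that floor. Against OVCAR-3, 928 genes were called higher in ES-2 (10.4% of those tested) and 674 lower (7.53%). Against SKOV-3, 567 were called higher (6.33%) and 629 lower (7.02%). Against the mean of both lines, 705 were higher (7.87%) and 535 lower (5.97%). Most calls were against a single line, 922 against OVCAR-3 alone and 516 against SKOV-3 alone, and 47 genes were called in opposite directions against the other lines.

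**Figure D1:**
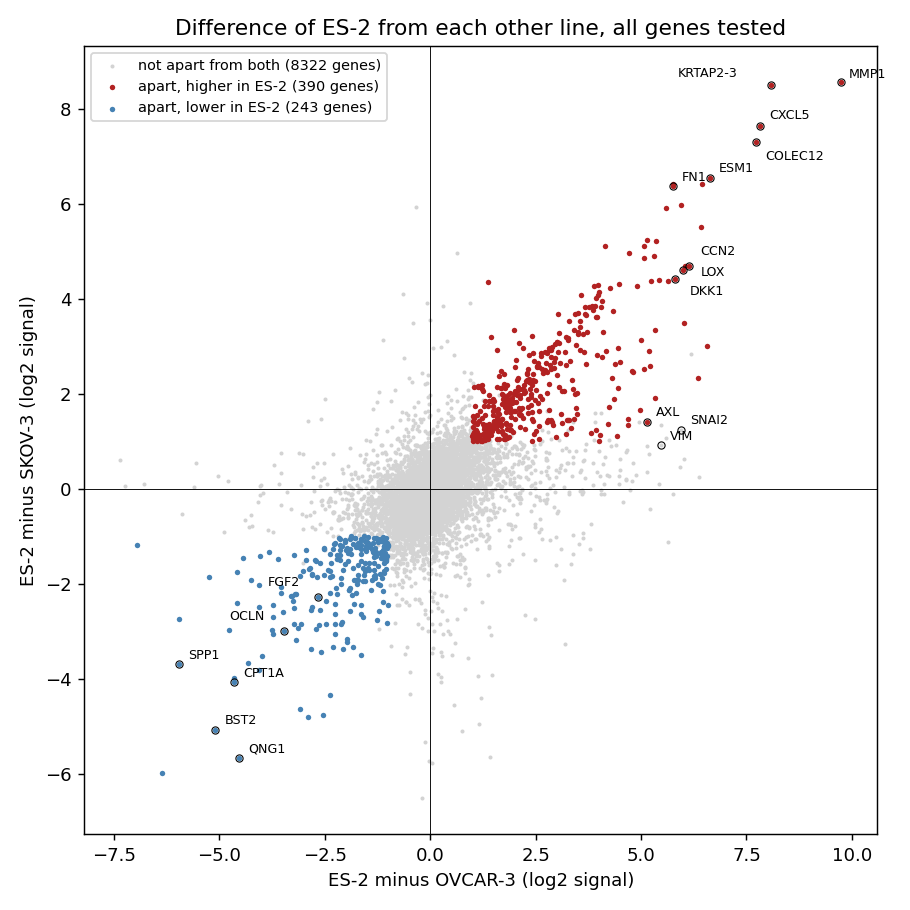
Difference of ES-2 from OVCAR-3 (x axis) and from SKOV-3 (y axis) in log2 signal for each of the 8955 genes tested, 1 point per gene. The 390 red genes were called higher and the 243 blue genes lower than both lines, while SNAI2 and VIM lie far to the right but near 1 on the y axis.

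The 390 genes higher in ES-2 were 4.36% of those tested and the 243 lower genes 2.71%. The filter kept a gene with a mean signal of at least 5 either over the 6 arrays or in ES-2, and 335 genes passed through ES-2 only. Of the 390 higher genes, 136 were among them. Such a gene had to be higher in ES-2 than the mean of the other lines, though not than each line. Among the 8620 genes with a mean of at least 5 over the 6 arrays, 254 were higher (2.95%) and 243 lower (2.82%). The share of higher genes among all those apart was thus 61.6%, and 51.1% under that filter, where the other lines give 4 of the 6 arrays. With a mean of at least 5 in any 1 line the share was 60.1%, and with no filter 62.1%. No excess of higher over lower genes is read from these counts.

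Both ES-2 arrays lay above all 4 other arrays in 389 of the 390 higher genes, against 1680 of all genes tested (18.8%). Both lay below them in 242 of the 243 lower genes, against 1866 of all genes tested (20.8%). The exceptions, named after their values were seen, were BGN, the proteoglycan biglycan, and TEAD2, a partner of the YAP coactivator. TEAD2 read 6.02 and 5.38 in ES-2, 7.79 and 7.36 in OVCAR-3 and 7.40 and 6.0 in SKOV-3. It lost its call against SKOV-3 without the ES-2 miR-blank array (-0.86, limma adjusted p 0.17), the ES-2 miR-135a-3p array (-1.14, 0.0731), either OVCAR-3 array (-1.0, 0.0511) or the SKOV-3 miR-blank array (-0.57, 0.0602). In the fit without transfection as a block, the limma adjusted p against SKOV-3 was 0.118 for BGN and 0.141 for TEAD2, so neither was called there. The values of BGN are given with the matrix genes. Since the calls select for separation, nothing is read from these counts. The smaller of a gene's differences from the other lines had a median of 1.76 among higher genes and -1.40 among lower genes. At least 4-fold from both lines were 162 higher and 58 lower genes, and at least 16-fold 29 and 4. In 85 higher genes the other lines stayed below the array median on all 4 arrays, and in 20 lower genes ES-2 did so on both arrays. At the threshold, CEP57 (1.0) was just inside and SP140 (1.0 after rounding) just outside, and among lower genes FASTKD1 (-1.0) was inside and MRAS (-0.997) outside. Protein-coding were 365 of the 390 higher and 229 of the 243 lower genes, beside 8197 of all 8955 genes tested, so nothing is read from these counts.

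The 3 markers given for the line were FN1, SNAI2 and VIM, and only FN1 was apart from both lines. FN1 encodes fibronectin, an adhesive glycoprotein of the matrix, and read 11.20 and 11.34 in ES-2, 4.41 and 6.63 in OVCAR-3 and 5.04 and 4.75 in SKOV-3. The ES-2 arrays lay far above the rest, by 5.75 from OVCAR-3 and 6.37 from SKOV-3 (SE 0.55 each, limma adjusted p 0.000599 and 0.0007). SNAI2, the repressor Slug, read 10.66 and 10.87 in ES-2, 4.94 and 4.70 in OVCAR-3 and 8.47 and 10.57 in SKOV-3. It was 5.95 above OVCAR-3 (limma adjusted p 0.00039), but the difference of 1.25 from SKOV-3 did not pass (limma adjusted p 0.134), and the SKOV-3 arrays differed from each other by more than 4-fold. VIM, vimentin, read 10.73 and 10.85 in ES-2, 5.08 and 5.54 in OVCAR-3 and 9.60 and 10.13 in SKOV-3. Its ES-2 arrays lay above all others, by 5.48 from OVCAR-3 (limma adjusted p 2.16e-05) and by 0.92 from SKOV-3 (limma adjusted p 0.0139), the latter under 2-fold. SNAI2 and VIM were thus high in ES-2 and SKOV-3 and low in OVCAR-3 on every array, and FN1 was high in ES-2 alone among these 3 lines.

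Secreted and cell surface proteins were among the products of the 15 genes most above both lines. MMP1, the interstitial collagenase that cleaves fibrillar collagen, read 12.55 and 12.35 in ES-2, 2.36 and 3.04 in OVCAR-3 and 2.70 and 5.03 in SKOV-3. It exceeded OVCAR-3 by 9.75 and SKOV-3 by 8.58 (SE 0.53, limma adjusted p 7e-05 and 0.000217), the largest smaller difference of any protein-coding gene tested. Of the 4 arrays of the other lines, 3 lay below the array median, so the size of this fold rests on the floor. CXCL5, a chemokine that attracts neutrophils, read 12.10 and 11.97 in ES-2, 4.41 and 4.03 in OVCAR-3 and 4.30 and 4.47 in SKOV-3. COLEC12, a scavenger receptor with a collagen-like stem, read 10.53 and 11.18 in ES-2 against 3.10 and 3.14 in OVCAR-3 and 3.58 and 3.50 in SKOV-3. The ES-2 arrays stood more than 6 log2 units above every other array for both genes (limma adjusted p 1.59e-05 and 1.57e-05 for CXCL5, 1.68e-05 and 2.69e-05 for COLEC12).

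ESM1, the secreted proteoglycan endocan, read 10.96 and 10.89 in ES-2, 4.28 and 4.29 in OVCAR-3 and 4.36 and 4.37 in SKOV-3. MME, the membrane endopeptidase neprilysin, read 9.56 and 9.85 in ES-2, 3.60 and 3.94 in OVCAR-3 and 3.97 and 3.47 in SKOV-3. CPA4, a carboxypeptidase, read 11.78 and 11.50 in ES-2, 4.67 and 5.78 in OVCAR-3 and 7.15 and 5.10 in SKOV-3. In these genes too the ES-2 arrays formed a tight high pair, while CPA4 varied in the other lines. CHRDL1, an antagonist of bone morphogenetic proteins, read 8.32 and 9.06 in ES-2 and no higher than 3.57 elsewhere. The limma tests, two-sided, gave adjusted p values from 1.57e-05 (ESM1 against SKOV-3) to 0.00227 (CPA4 against SKOV-3) for these 4 genes.

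Others among the leading 15 act inside the cell or at its skeleton. ANKRD1, an ankyrin repeat protein known as a target of the YAP coactivator, read 11.09 and 10.19 in ES-2, 4.59 and 5.16 in OVCAR-3 and 4.54 and 3.86 in SKOV-3. NEXN, the actin-binding protein nexilin, read 7.79 and 8.67 in ES-2, 2.76 and 2.53 in OVCAR-3 and 2.27 and 2.36 in SKOV-3. FAR2, a fatty acyl-CoA reductase, read 7.84 and 7.95 in ES-2, 2.91 and 2.72 in OVCAR-3 and 3.24 and 2.82 in SKOV-3. All 3 were separated from the other lines by more than 4 log2 units on every array, and NEXN and FAR2 passed the filter through ES-2 only. TMEM156 (9.01 and 9.26 in ES-2, at most 2.71 elsewhere) and the kinase gene NRK (8.14 and 7.37 in ES-2, at most 2.73 elsewhere) did so too. KRTAP2-3, which encodes a keratin-associated protein of hair, read 11.48 and 11.63 in ES-2 and at most 3.60 elsewhere, but it belongs to a family of near-identical genes, so which copy was measured is uncertain.

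**Figure D2:**
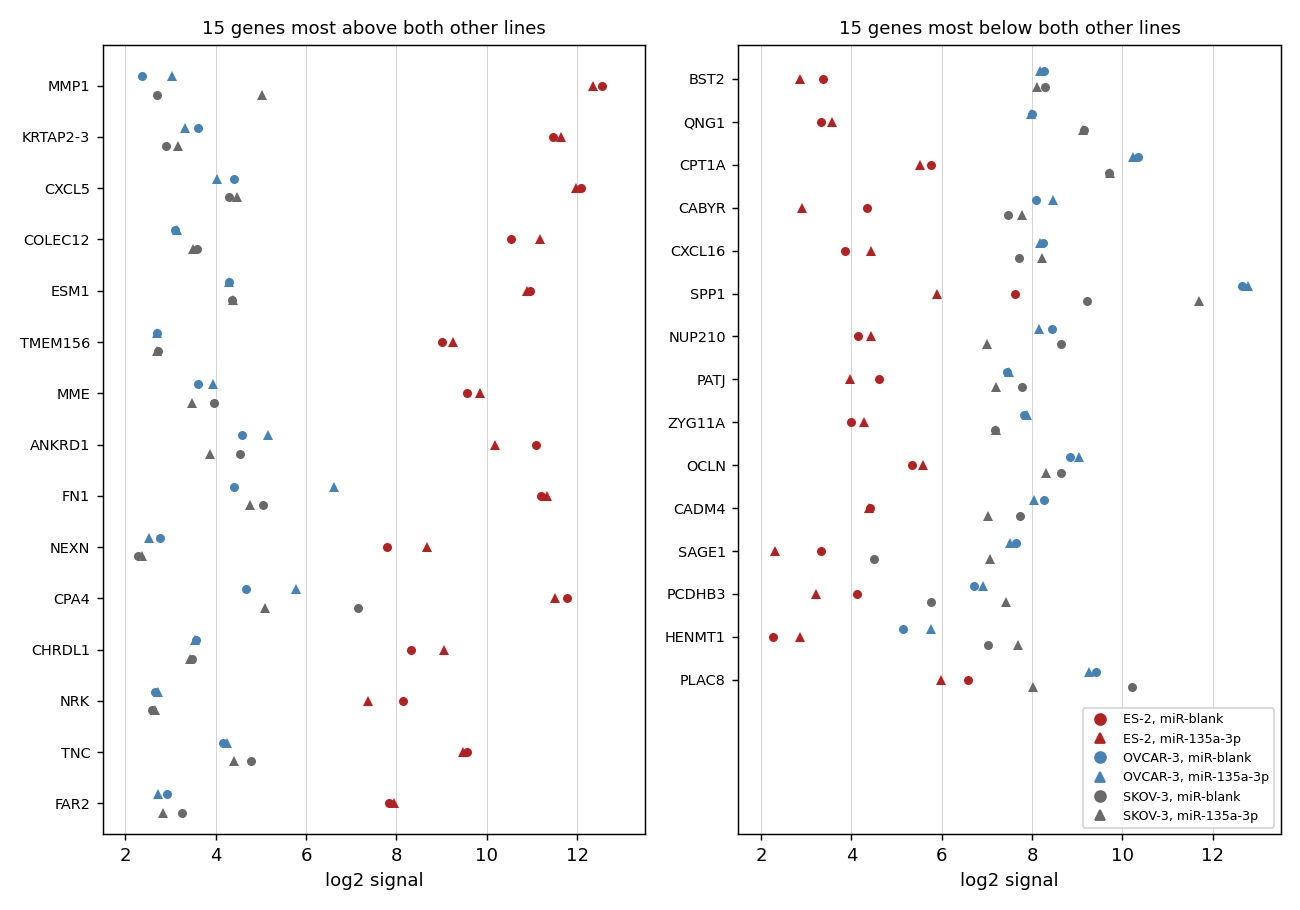
Log2 signal on each of the 6 arrays for the 15 protein-coding genes most above both other lines (left) and the 15 most below (right), ordered by the smaller of the differences from OVCAR-3 and SKOV-3. Circles are miR-blank and triangles miR-135a-3p. The ES-2 arrays (red) stand clear of the others in every gene shown, while SAGE1 and SPP1 spread widely between the SKOV-3 arrays.

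The 15 genes most below both lines had varied roles. BST2, tetherin, which holds budding virus particles at the membrane, read 3.37 and 2.87 in ES-2, 8.26 and 8.17 in OVCAR-3 and 8.28 and 8.10 in SKOV-3. It was lower by 5.10 than in OVCAR-3 and by 5.07 than in SKOV-3 (SE 0.18, limma adjusted p 2.16e-05 and 4.96e-05), and both ES-2 arrays lay below the array median. QNG1, the enzyme that releases the base queuine for reuse in transfer RNA, read 3.33 and 3.58 in ES-2, 8.0 and 7.99 in OVCAR-3 and 9.15 and 9.12 in SKOV-3. CPT1A, which admits long-chain fatty acids to mitochondrial oxidation, read 5.76 and 5.51 in ES-2, 10.35 and 10.23 in OVCAR-3 and 9.69 and 9.73 in SKOV-3. Its ES-2 signal stood above the array median and still 16.8-fold below SKOV-3 and 25.2-fold below OVCAR-3 (limma adjusted p 6.43e-05 and 2.16e-05).

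CXCL16, a chemokine made as a membrane protein, read 3.86 and 4.43 in ES-2, 8.24 and 8.17 in OVCAR-3 and 7.71 and 8.22 in SKOV-3. CADM4, a cell adhesion molecule of the immunoglobulin family, read 4.42 and 4.38 in ES-2, 8.26 and 8.05 in OVCAR-3 and 7.73 and 7.02 in SKOV-3. NUP210, a pore membrane glycoprotein of the nuclear envelope, read 4.16 and 4.44 in ES-2, 8.44 and 8.14 in OVCAR-3 and 8.64 and 7.01 in SKOV-3. The ES-2 arrays did not overlap the others for these genes. HENMT1, the methyltransferase of piwi-interacting RNA, read 2.26 and 2.86 in ES-2, 5.15 and 5.76 in OVCAR-3 and 7.03 and 7.70 in SKOV-3, so here the other lines also differed from each other. CABYR, a calcium-binding protein of the sperm tail, read 4.35 and 2.91 in ES-2 and between 7.46 and 8.47 elsewhere. The non-coding LINC00624, named after its values were seen, read 2.32 and 2.01 in ES-2 and between 7.94 and 8.55 elsewhere.

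SPP1 and SAGE1 were apart as well, but each lost a call when a single array was left out. For SPP1 that was either OVCAR-3 array, which is no part of the difference from SKOV-3. SPP1, the secreted phosphoprotein osteopontin, read 7.62 and 5.89 in ES-2, 12.66 and 12.78 in OVCAR-3 and 9.21 and 11.68 in SKOV-3. It was lower by 5.96 than in OVCAR-3 (limma adjusted p 0.00309) and by 3.69 than in SKOV-3 (limma adjusted p 0.0246). Without either OVCAR-3 array the difference from SKOV-3 stayed at -3.69 with a limma adjusted p of 0.0512. SAGE1, a cancer-testis antigen, read 3.32 and 2.31 in ES-2, 7.63 and 7.52 in OVCAR-3 and 4.50 and 7.08 in SKOV-3. Its call against SKOV-3 was lost without the ES-2 miR-135a-3p array (-1.85, limma adjusted p 0.101) and without either OVCAR-3 array (-2.98, limma adjusted p 0.0599), and its call against OVCAR-3 without the OVCAR-3 miR-blank array (-4.31, limma adjusted p 0.0527).

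**Figure D3:**
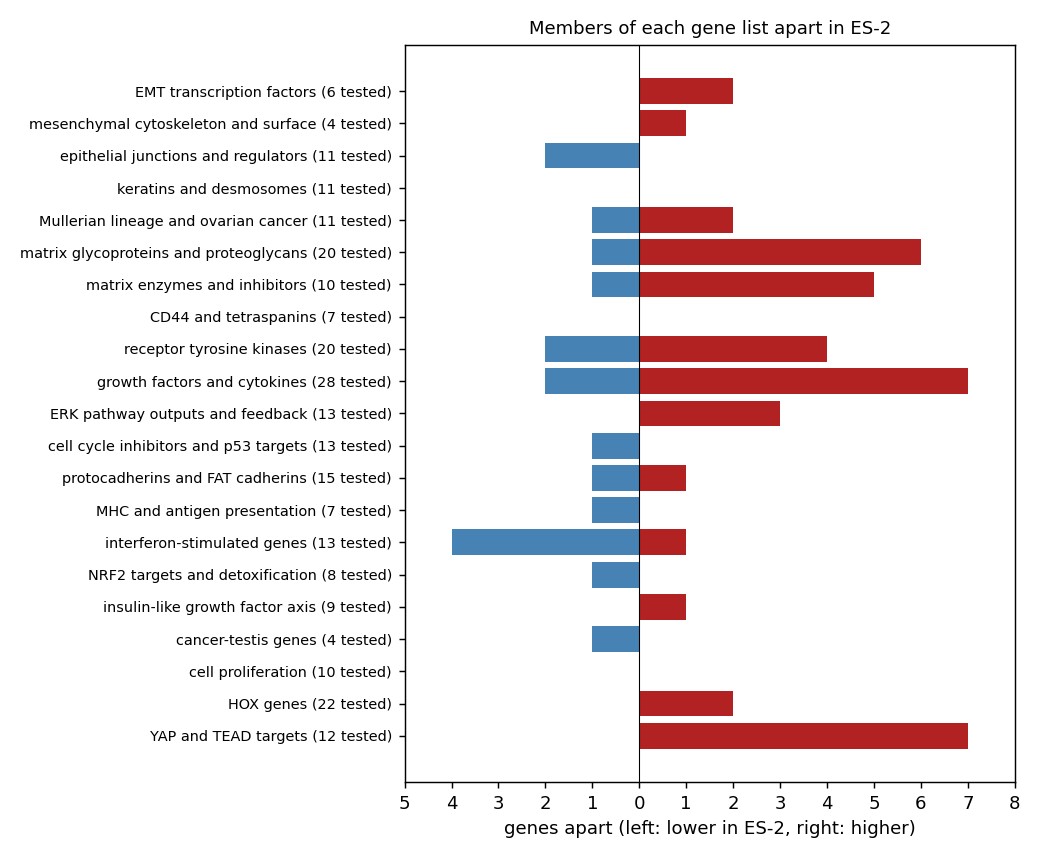
Number of tested members of each gene list that were apart in ES-2, lower to the left and higher to the right, for lists with at least 4 tested members. Matrix, growth factor and YAP target lists extend to the right, with 6, 5, 7 and 7 higher members, and the interferon list to the left with 4. Over all genes tested 4.36% were higher and 2.71% lower.

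The matrix lists held some of the largest differences. Counts of list members are to be set beside the shares over all genes tested, 4.36% higher than both lines and 2.71% lower. Since these calls chose the genes described, the counts are descriptions. Of 20 tested matrix glycoproteins and proteoglycans, 6 were higher than both lines and 1 was lower, with medians of 1.74 from OVCAR-3 and 0.93 from SKOV-3, and 2 of the 20 passed the filter through ES-2 only, FBN2 and THBS2. TNC, tenascin C, a glycoprotein of wounds and tumour stroma, read 9.55 and 9.46 in ES-2, 4.15 and 4.26 in OVCAR-3 and 4.79 and 4.40 in SKOV-3. CCN2, connective tissue growth factor, read 11.95 and 12.06 in ES-2, 5.80 and 5.94 in OVCAR-3 and 7.56 and 7.04 in SKOV-3. FBN2, fibrillin 2 of elastic microfibrils, read 7.37 and 7.83 in ES-2 and at most 3.94 elsewhere. These genes and FN1 kept ES-2 clear of both lines on every array. The remaining higher members were EFEMP2, a fibulin of elastic fibres (6.17 and 6.46 in ES-2, at most 4.84 elsewhere), and BGN. BGN read 9.36 and 7.98 in ES-2, 6.38 and 6.13 in OVCAR-3 and 8.07 and 6.33 in SKOV-3, so its groups overlapped, and its call against SKOV-3 was lost without the ES-2 miR-blank array (1.27, limma adjusted p 0.095). The lower member was FBLN1, fibulin 1, which read 5.59 and 5.19 in ES-2, 7.80 and 7.65 in OVCAR-3 and 7.39 and 7.07 in SKOV-3. None of 27 listed collagen and laminin genes was analysed here.

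Of 10 tested matrix enzymes and inhibitors, 5 were higher than both lines and 1 was lower (4.36% and 2.71% over all genes tested), with medians of 3.0 and 1.30. LOX, lysyl oxidase, which cross-links collagen and elastin, read at least 10.81 on both ES-2 arrays, 4.79 and 5.05 in OVCAR-3 and 6.23 and 6.37 in SKOV-3. Its relative LOXL1 read 9.43 and 9.60 in ES-2, 6.67 and 6.03 in OVCAR-3 and 7.22 and 7.67 in SKOV-3. TIMP3, a matrix-bound inhibitor of metalloproteinases, read 6.58 and 6.65 in ES-2 and at most 3.59 elsewhere, and it passed the filter through ES-2 only. The collagenase MMP1, the cross-linking enzymes LOX and LOXL1 and the inhibitor TIMP3 were therefore higher in ES-2 side by side. Their relatives LOXL2, LOXL4, TIMP1 and TIMP2 were not apart. Line means in ES-2 and SKOV-3 were 9.50 and 9.56 for LOXL2, 10.60 and 10.07 for TIMP1 and 8.16 and 8.94 for TIMP2. MMP14, a membrane-anchored metalloproteinase, read 8.49 and 8.55 in ES-2, 7.40 and 6.90 in OVCAR-3 and 4.17 and 4.15 in SKOV-3. MMP15, another membrane type, went the other way, with 5.30 and 5.27 in ES-2, 7.63 and 7.78 in OVCAR-3 and 7.14 and 6.84 in SKOV-3. No integrin gene was analysed here. Among CD44 and tetraspanins, 7 genes tested, limma put 0 apart, with medians of 0.06 and -0.14, and at an unadjusted p under 0.05 against both lines 1 was higher.

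Of 6 tested transcription factors of epithelial-mesenchymal transition, 2 were higher than both lines (4.36% over all genes tested). ZEB2, a zinc finger repressor of epithelial genes, read 5.73 and 5.61 in ES-2, 4.38 and 4.19 in OVCAR-3 and 4.50 and 4.14 in SKOV-3, and it passed the filter through ES-2 only. PRRX1, a homeobox factor of mesenchyme, read 6.74 and 6.13 in ES-2, 4.47 and 4.54 in OVCAR-3 and 5.12 and 5.28 in SKOV-3. Without the ES-2 miR-blank array it lost its call against SKOV-3 (0.87, limma adjusted p 0.095). SNAI1, the factor Snail, was at 6.09 and 4.87 in ES-2, 6.63 and 6.30 in OVCAR-3 and 7.15 and 6.67 in SKOV-3, so it lay lowest in ES-2. Of 4 tested mesenchymal cytoskeleton and surface genes, ENG alone was apart. ENG, the coreceptor endoglin of transforming growth factor beta, read 9.48 and 9.86 in ES-2, 5.17 and 4.77 in OVCAR-3 and 4.73 and 4.68 in SKOV-3, which put both ES-2 arrays more than 4 log2 units above all others.

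Of 11 tested epithelial junction genes, 7 were lower than in OVCAR-3 and 4 lower than in SKOV-3, against 7.53% and 7.02% of all genes tested. The medians were -1.47 and -0.45, and 2 genes were lower than both lines (2.71% over all genes tested). OCLN, occludin, a membrane protein of tight junctions, read 5.34 and 5.59 in ES-2, 8.84 and 9.05 in OVCAR-3 and 8.63 and 8.30 in SKOV-3. PATJ, a scaffold of the Crumbs polarity complex at tight junctions, read 4.61 and 3.97 in ES-2, 7.44 and 7.50 in OVCAR-3 and 7.77 and 7.20 in SKOV-3. OCLN and PATJ were thus high in both other lines and low in ES-2, with no overlap. Other junction genes separated ES-2 from a single line, as in CLDN7, a claudin at 4.87 and 5.26 in ES-2, 9.24 and 8.97 in OVCAR-3 and 4.94 and 5.09 in SKOV-3. CLDN1, another claudin, was at 4.33 and 4.32 in ES-2, 3.53 and 3.59 in OVCAR-3 and 10.13 and 8.74 in SKOV-3. Of 11 tested keratin and desmosome genes limma put 0 apart, and at an unadjusted p under 0.05 against both lines 1 was lower. Of the 11, 3 were higher and 1 lower than in OVCAR-3 (10.4% and 7.53% over all genes tested), and 0 were higher and 4 lower than in SKOV-3 (6.33% and 7.02%), with medians of 0.29 and -0.56. KRT18, a keratin of simple epithelia, was high in all lines, at 10.47 and 10.37 in ES-2, 10.26 and 10.14 in OVCAR-3 and 9.36 and 9.95 in SKOV-3.

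Promoters of 16 genes named in the text were searched for 3 motifs. Of the 7 that held one, 6 are printed, chosen because they hold a motif, and the other was SPP1, with an E-box. The 9 without a match in the 250 bases before the transcription start were those of LOX, FN1, TNC, CXCL5, ESM1, DDR2, BST2, CPT1A and VIM. In the longer window used further below for shares over gene sets, DDR2 did hold the AP-1 motif. The printed sequences are the 250 bases before the transcription start, from RefSeq on GRCh38.p14, on the strand of the gene, 5′ to 3′ in lower case. Capitals mark matches to the motifs, searched on both strands: CAGGTG (or CACCTG), the E-box that SNAI2 and related repressors bind, TGAGTCA (or TGACTCA), the AP-1 motif, and GGAATG (or CATTCC), the core bound by TEAD factors, the DNA-binding partners of YAP. No motif lies within another. The AP-1 and TEAD motifs were chosen after the genes' values were seen. CCN2 lies at chr6:131951373-131951622 and ANKRD1 at chr10:90921088-90921337, both on the minus strand. TMEM156 lies at chr4:39032410-39032659 on the minus strand and CPA4 at chr7:130292911-130293160 on the plus strand. OCLN at chr5:69492297-69492546 and PATJ at chr1:61742230-61742479 are on the plus strand.
CCN2: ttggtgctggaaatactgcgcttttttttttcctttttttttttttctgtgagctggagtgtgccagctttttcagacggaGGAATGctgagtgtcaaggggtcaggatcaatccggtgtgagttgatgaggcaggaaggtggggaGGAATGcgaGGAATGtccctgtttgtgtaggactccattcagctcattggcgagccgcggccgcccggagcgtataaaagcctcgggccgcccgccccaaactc
ANKRD1: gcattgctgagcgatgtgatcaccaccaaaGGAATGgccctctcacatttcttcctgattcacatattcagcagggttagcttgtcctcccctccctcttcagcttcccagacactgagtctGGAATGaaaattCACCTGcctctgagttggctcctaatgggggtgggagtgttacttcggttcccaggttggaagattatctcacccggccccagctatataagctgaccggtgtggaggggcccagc
TMEM156: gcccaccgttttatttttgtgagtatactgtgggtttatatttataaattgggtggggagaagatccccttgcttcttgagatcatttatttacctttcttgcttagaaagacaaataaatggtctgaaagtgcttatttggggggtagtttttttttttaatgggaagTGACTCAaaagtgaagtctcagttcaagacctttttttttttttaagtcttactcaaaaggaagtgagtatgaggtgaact
CPA4: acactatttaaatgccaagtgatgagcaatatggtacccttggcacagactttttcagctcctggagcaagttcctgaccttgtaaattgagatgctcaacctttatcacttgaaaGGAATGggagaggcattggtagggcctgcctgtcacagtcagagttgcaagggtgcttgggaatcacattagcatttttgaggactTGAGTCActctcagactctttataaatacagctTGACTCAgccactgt
OCLN: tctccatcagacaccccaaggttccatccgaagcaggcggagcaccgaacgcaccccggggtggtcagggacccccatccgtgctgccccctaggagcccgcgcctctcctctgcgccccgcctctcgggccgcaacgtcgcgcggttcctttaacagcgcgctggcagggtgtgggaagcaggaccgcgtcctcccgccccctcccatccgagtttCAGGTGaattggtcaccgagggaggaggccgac
PATJ: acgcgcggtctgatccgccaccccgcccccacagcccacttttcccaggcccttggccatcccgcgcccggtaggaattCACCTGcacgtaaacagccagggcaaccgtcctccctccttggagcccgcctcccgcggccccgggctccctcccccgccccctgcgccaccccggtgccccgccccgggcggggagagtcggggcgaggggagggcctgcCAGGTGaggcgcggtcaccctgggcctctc

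CCN2 held GGAATG at 169, 104 and 95 bases before the start, and ANKRD1 at 220 and 128 bases, with a CACCTG at 116 bases. TMEM156 held TGACTCA at 81 bases before the start. CPA4 held TGAGTCA at 48 and TGACTCA at 15 bases, beside a GGAATG at 134 bases. The E-box stood 33 bases before the start of OCLN and 171 and 30 bases before that of PATJ. A match describes the letters in this window and shows no binding.

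Over windows of the same kind that also take in the first 50 transcribed bases, 312 of the higher and 185 of the lower genes had a promoter in the RefSeq table. The AP-1 motif was in 6.4% of the higher genes' promoters (20 of 312), 0.5% of the lower genes' (1 of 185, MBNL2), 2.9% of the 7091 tested genes with a promoter and 4.9% of all 27305 promoters of the table. The E-box was in 13.8% of the higher (43), 27.6% of the lower (51), 18.2% of the tested and 20.6% of all promoters. The TEAD motif was in 10.6% of the higher, 10.3% of the lower, 10.6% of the tested and 14.0% of all promoters, so it was no more frequent among the higher genes than among all those tested. Among the 14 tested epithelial, keratin and desmosome genes with a promoter, 7 held the E-box. The sets also differed in base composition, with a median of 64.2% G and C in the higher, 68.0% in the lower and 65.7% in the tested promoters. Of the 390 higher genes, 136 passed the filter through ES-2 only, against 0 of the lower genes. Such genes had to exceed the mean of the other lines in ES-2. Among the 20 higher genes with the AP-1 motif, TMEM156, HCLS1, CCDC152, AIM2, SH2D1B, GPNMB, SLAMF9, LYPD1 and LCTL passed through ES-2 only. The part of genes that passed through ES-2 only and of base composition in the motif shares was not tested.

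DDR2, FAT4 and several ligands and receptors for growth signals were among the higher genes. Of 28 tested growth factors and cytokines, 7 were higher than both lines and 2 lower (4.36% and 2.71% over all genes tested), with medians of 1.98 and 0. Of the 28, PDGFC and PDGFD passed the filter through ES-2 only. DKK1, a secreted inhibitor of Wnt signalling, read 10.25 and 10.70 in ES-2, 4.79 and 4.56 in OVCAR-3 and 5.11 and 6.98 in SKOV-3. FST, follistatin, which binds activins, read 8.55 and 8.81 in ES-2 and at most 4.84 elsewhere. FGF5, a fibroblast growth factor, read 10.27 and 10.39 in ES-2, 5.21 and 4.80 in OVCAR-3 and 7.71 and 9.12 in SKOV-3. ES-2 arrays were above all others for the 3 genes, most narrowly for FGF5. BMP2, a bone morphogenetic protein, read 6.89 and 6.47 in ES-2 and at most 5.02 elsewhere, and its relative BMP4 read 6.53 and 6.53 in ES-2 and at most 5.03 elsewhere. HBEGF, a ligand of the epidermal growth factor receptor, read 8.65 and 8.63 in ES-2, 5.78 and 5.68 in OVCAR-3 and 6.91 and 7.70 in SKOV-3. Leaving out the ES-2 miR-blank array ended its call against SKOV-3 (1.16, limma adjusted p 0.0621), and without the SKOV-3 miR-blank array the difference was 0.91, under 2-fold. PDGFD, a platelet-derived growth factor, read 5.64 and 5.46 in ES-2 and at most 4.69 elsewhere, and its call against SKOV-3 was lost without the same arrays (0.85, limma adjusted p 0.108, and 0.86, under 2-fold).

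FGF2, basic fibroblast growth factor, was lower, with 7.68 and 8.43 in ES-2, 10.81 and 10.63 in OVCAR-3 and 10.20 and 10.45 in SKOV-3. The ES-2 arrays lay below all 4 others, by 2.66 from OVCAR-3 and 2.27 from SKOV-3 on average. GDF15, a stress-induced cytokine, was the other lower ligand, with 5.51 and 6.13 in ES-2, 7.31 and 7.97 in OVCAR-3 and 8.09 and 6.89 in SKOV-3. Its calls were lost in 4 of the 6 fits with an array left out. Without the ES-2 miR-blank array the differences were -1.38 and -1.23 (limma adjusted p 0.0903 and 0.155), without the OVCAR-3 miR-blank array -2.30 and -1.67 (0.0573 and 0.056), without the OVCAR-3 miR-135a-3p array -1.35 and -1.67 (0.201 and 0.056), and without the SKOV-3 miR-blank array the difference from SKOV-3 was -0.75, under 2-fold.

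Of 20 tested receptor tyrosine kinases, 4 were higher than both lines and 2 lower, against 4.36% and 2.71% of all genes tested, with medians of 0.16 and 0.08. DDR2, a receptor for fibrillar collagen, read 8.06 and 8.34 in ES-2, 3.97 and 4.48 in OVCAR-3 and 3.92 and 3.88 in SKOV-3. The ephrin receptors EPHA4 (7.62 and 7.06 in ES-2, at most 4.98 elsewhere) and EPHB1 (6.17 and 6.16 in ES-2, at most 4.59 elsewhere) were also clear of both lines. AXL, the receptor of GAS6, read 11.01 and 10.86 in ES-2, 5.84 and 5.75 in OVCAR-3 and 9.44 and 9.59 in SKOV-3, and was thus 35.3-fold above OVCAR-3 and 2.67-fold above SKOV-3. The lower receptors were INSR, the insulin receptor (4.67 and 4.42 in ES-2, at least 5.68 elsewhere), and MERTK, of the same family as AXL. MERTK read 5.55 and 5.08 in ES-2, 7.30 and 7.38 in OVCAR-3 and 6.38 and 6.49 in SKOV-3. Its call against SKOV-3 was lost without the ES-2 miR-135a-3p array (-0.84, limma adjusted p 0.105), and without the SKOV-3 miR-135a-3p array the difference was -0.97, under 2-fold. EGFR and MET, receptors for epidermal and hepatocyte growth factor, were not apart, since SKOV-3 had them too (EGFR 9.67 and 9.79 in ES-2, 4.46 and 4.64 in OVCAR-3 and 9.29 and 8.71 in SKOV-3).

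Of 13 tested outputs of the ERK pathway, 3 were higher than both lines (4.36% over all genes tested), with medians of 1.21 and 0.96. DUSP6, a phosphatase that acts on ERK and is induced by it, read 9.40 and 8.98 in ES-2, 4.0 and 4.83 in OVCAR-3 and 5.79 and 7.61 in SKOV-3. ETV1, an ETS transcription factor, read 7.36 and 7.63 in ES-2, 4.75 and 4.36 in OVCAR-3 and 5.06 and 4.84 in SKOV-3. CCND1, cyclin D1, read 9.86 and 9.89 in ES-2, 8.39 and 8.15 in OVCAR-3 and 7.93 and 9.0 in SKOV-3. The ES-2 arrays lay above the rest in all 3 genes, by the least for CCND1. Leaving out the ES-2 miR-blank array ended its call against SKOV-3 (1.22, limma adjusted p 0.0864), without the SKOV-3 miR-blank array the difference was 0.83, and its call against OVCAR-3 was lost without the OVCAR-3 miR-135a-3p array (1.21, limma adjusted p 0.105). SPRY2 and SPRY4, feedback inhibitors of the pathway, were at like levels in ES-2 and OVCAR-3 (SPRY2 9.02 and 8.48 in ES-2, 9.10 and 8.41 in OVCAR-3) and lower in SKOV-3 (SPRY2 4.96 and 5.44).

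A list of 22 YAP and TEAD targets was added after CCN2 and ANKRD1 had been seen among the leading genes, so its counts are no independent evidence. Of its 12 tested members, 7 were higher than both lines (4.36% over all genes tested), with medians of 3.94 and 1.37. CCN2, ANKRD1 and AXL, described above, are among them. FJX1, a secreted protein, read 10.42 and 10.31 in ES-2 and at most 6.49 elsewhere. CCDC80, a matrix-associated protein, read 9.40 and 9.72 in ES-2, 4.25 and 4.18 in OVCAR-3 and 6.0 and 6.42 in SKOV-3. Both were clear of the other lines on every array. MYOF, a membrane repair protein, read 10.88 and 10.68 in ES-2, 7.17 and 7.92 in OVCAR-3 and 9.44 and 9.20 in SKOV-3, and its call against SKOV-3 was lost without the ES-2 miR-blank array (1.23, limma adjusted p 0.0565). AMOTL2, a scaffold that binds YAP, read 8.26 and 8.0 in ES-2 and at most 7.05 elsewhere. Its call was lost without the ES-2 miR-blank array (1.13 from SKOV-3, limma adjusted p 0.0561) and the OVCAR-3 miR-135a-3p array (1.31 from OVCAR-3, limma adjusted p 0.0579), and without the SKOV-3 miR-blank array the difference was 0.96.

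Among 13 tested interferon-stimulated genes, 4 were lower than both lines and 1 higher (2.71% and 4.36% over all genes tested), with medians of 0.14 and -0.55. BST2, described above, had by far the widest gap. UBE2L6, the conjugating enzyme for ISG15, read 5.26 and 4.66 in ES-2, 6.55 and 6.78 in OVCAR-3 and 6.50 and 6.63 in SKOV-3. ISG15, a ubiquitin-like modifier, read 5.99 and 6.41 in ES-2, 7.31 and 7.40 in OVCAR-3 and 7.36 and 7.21 in SKOV-3. Both genes were low in ES-2 without overlap, but the calls on ISG15 rested on single arrays. They were lost without the ES-2 miR-blank array (-0.93 and -0.86, limma adjusted p 0.0624 and 0.102), the OVCAR-3 miR-blank array (-1.14, limma adjusted p 0.0667) and the OVCAR-3 miR-135a-3p array (-1.17, limma adjusted p 0.0617), and without the SKOV-3 miR-blank array the difference was -0.88. IFITM3, a membrane protein that blocks virus entry, read 6.12 and 4.62 in ES-2, 7.13 and 6.69 in OVCAR-3 and 7.37 and 6.83 in SKOV-3, and lost its call without the OVCAR-3 miR-135a-3p array (-1.25, limma adjusted p 0.0903). It shares sequence with IFITM2, which read 10.44 and 9.76 in ES-2, 3.90 and 3.94 in OVCAR-3 and 10.39 and 4.12 in SKOV-3, so the values of the pair are uncertain. IFI44, an interferon-induced protein, went the other way, with 6.73 and 7.60 in ES-2, 2.85 and 2.50 in OVCAR-3 and 4.29 and 4.70 in SKOV-3, but it passed the filter through ES-2 only. In the antigen presentation list of 7 tested genes, ERAP2, a peptide-trimming aminopeptidase, was the lower member, at 4.29 and 3.71 in ES-2, 5.85 and 6.10 in OVCAR-3 and 7.58 and 6.86 in SKOV-3.

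Of 11 tested genes of the Müllerian lineage and of ovarian carcinoma, MECOM and GATA6 were higher than both lines and SPP1 was lower (4.36% and 2.71% over all genes tested), with medians of 0.04 and -0.94. MECOM, a zinc finger factor often amplified in ovarian carcinoma, read 6.24 and 6.35 in ES-2, 3.71 and 3.73 in OVCAR-3 and 4.69 and 4.61 in SKOV-3. It passed the filter through ES-2 only, so it had to exceed the mean of the other lines there. GATA6, a factor of mesoderm and endoderm, read 7.64 and 8.13 in ES-2, 4.49 and 5.33 in OVCAR-3 and 6.98 and 6.62 in SKOV-3. Its call against SKOV-3 did not hold without the ES-2 miR-blank array (1.21, limma adjusted p 0.0794), the ES-2 miR-135a-3p array (0.96, limma adjusted p 0.161) or the SKOV-3 miR-135a-3p array (0.57, limma adjusted p 0.07). PAX8, a factor of Müllerian epithelium, was near the array medians in ES-2 (4.17 and 4.80) and OVCAR-3 (4.33 and 4.12) and high in SKOV-3 (8.80 and 8.12). SPP1 lost its call against SKOV-3 without either OVCAR-3 array (-3.69, limma adjusted p 0.0512). Of 3 tested clear cell carcinoma markers limma put 0 apart, and at an unadjusted p under 0.05 against both lines 1 was higher and 1 lower. TFPI2, a protease inhibitor among them, read 10.33 and 9.81 in ES-2, 4.21 and 4.63 in OVCAR-3 and 11.25 and 11.11 in SKOV-3, so it was shared with SKOV-3.

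Of 15 tested genes of the cadherin superfamily, FAT1, FAT4 and otherwise protocadherins, 1 was higher than both lines and 1 lower (4.36% and 2.71% over all genes tested), and 11 were lower than in SKOV-3 (7.02%). The classical cadherins were not analysed here. FAT4, a giant cadherin of the Hippo and planar polarity pathways, read 7.70 and 8.33 in ES-2, 4.43 and 4.84 in OVCAR-3 and 5.18 and 6.62 in SKOV-3. PCDHB3, of the clustered protocadherins, read 4.13 and 3.21 in ES-2, 6.72 and 6.91 in OVCAR-3 and 5.76 and 7.43 in SKOV-3. Its ES-2 arrays lay below all others, but its call against OVCAR-3 was lost without the OVCAR-3 miR-blank array (-3.05, limma adjusted p 0.0605) or the OVCAR-3 miR-135a-3p array (-3.23, limma adjusted p 0.0524). The clustered genes are alike in sequence, so their separate signals are uncertain.

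Lists with few or no members apart are given by count. Of 13 tested cell cycle inhibitors and p53 targets, TP53I3, a p53-induced oxidoreductase, was the only one apart, lower by 1.33 than in OVCAR-3 and by 1.45 than in SKOV-3. Its calls were lost without the ES-2 miR-135a-3p array (-0.86 and -0.97, limma adjusted p 0.154 and 0.129), the OVCAR-3 miR-blank array (-1.20 and -1.45, limma adjusted p 0.181 and 0.0529) and the OVCAR-3 miR-135a-3p array (-1.47 and -1.45, limma adjusted p 0.117 and 0.0529), and without the SKOV-3 miR-135a-3p array the difference from SKOV-3 was -0.83. Of 8 tested NRF2 targets, HMOX1, the haem oxygenase, was lower, at 7.05 and 7.38 in ES-2, 8.62 and 8.69 in OVCAR-3 and 8.89 and 8.97 in SKOV-3. Of 9 genes of the insulin-like growth factor axis, IGF2BP2, an RNA-binding protein, was higher, at 9.58 and 9.70 in ES-2, 5.61 and 4.27 in OVCAR-3 and 8.43 and 7.89 in SKOV-3. Without the ES-2 miR-135a-3p array it lost its call against SKOV-3 (0.94, limma adjusted p 0.116). Of 4 tested cancer-testis genes, SAGE1 was lower, as described. Of 10 tested proliferation genes limma called 0 against either line, and 2 had an unadjusted p under 0.05 against OVCAR-3 and 2 against SKOV-3, with medians of 0 and 0.06. MKI67, the Ki-67 antigen of cycling cells, read 10.45 and 10.41 in ES-2, 10.54 and 10.51 in OVCAR-3 and 10.90 and 10.45 in SKOV-3.

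Several higher genes are best known from endothelium, so markers of other cell types were read as well. TIE1, an endothelial receptor kinase, read 8.38 and 8.27 in ES-2, 4.69 and 4.44 in OVCAR-3 and 4.56 and 4.41 in SKOV-3. Of 7 endothelial markers, 6 were named, 2 of them lay below the array median on both ES-2 arrays, and their summed log2 signal was 30.2 to 30.9 in ES-2, 27.1 to 27.4 in OVCAR-3 and 26.1 to 27.0 in SKOV-3. Near or below the array medians of 4.16 to 4.23 in ES-2 were PECAM1 (3.89 and 3.92), VWF (4.29 and 4.51) and EMCN (2.22 and 2.02). CLDN5 (5.15 and 5.43) and ESAM (6.28 and 6.72) lay above them, but also in OVCAR-3 (5.41 and 5.37, 6.75 and 7.10) and SKOV-3 (5.30 and 5.11, 6.11 and 5.98), so of the 6 markers TIE1 alone was apart in ES-2. Every array came from a single established line, and the presence of cells of another type was not tested. In bulk RNA of a line, the share of its cells that express a gene and the RNA per cell cannot be told apart. Of 10 leukocyte markers, 4 were named, 2 of them below the median on both ES-2 arrays, with sums of 22.5 to 22.6 in ES-2, 19 to 19.3 in OVCAR-3 and 19.4 to 22.0 in SKOV-3. Most of this difference lay in CD68, at 10.40 and 10.15 in ES-2, 7.68 and 7.29 in OVCAR-3 and 7.96 and 10.20 in SKOV-3. The line means of TYROBP (5.42 in ES-2, 5.20 in OVCAR-3, 5.52 in SKOV-3), CD14 (3.67, 3.44, 3.50) and LYZ (3.20, 3.0, 2.58) lay closer together. For melanocyte and neural crest markers, 8 of 10 named, the sums were 40.7 to 41.6, 43.0 to 44.2 and 39.0 to 39.3.

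Some of the genes apart were neighbours. Among tested genes in chromosomal order, 9 runs of at least 3 consecutive genes were all apart in the same direction, 6 higher and 3 lower, with 33 genes in all. Genes that passed the filter through ES-2 only had to exceed the mean of the other lines there. Among the genes of the higher runs they were CCDC190, FLI1, SENCR, HOXD3, LINC01116, NRK, PWWP3B and RADX. Their place in the order of tested genes thus depended on ES-2, and nothing is read from the number of higher runs. On chromosome 1, UAP1, DDR2, CCDC190 and RGS4 formed a higher run. RGS4, a regulator of G protein signalling, read 7.48 and 8.11 in ES-2 and at most 4.09 elsewhere, and UAP1, an enzyme of amino sugar synthesis, read 10.65 and 10.90 in ES-2 and at most 8.86 elsewhere. The tested gene before the run, UHMK1, differed by -0.07 from OVCAR-3 and 0.30 from SKOV-3, so the difference ended there. The gene after it, RGS5, differed by 0.58 and 1.17. On chromosome 11, TPCN2, MYEOV, CCND1 and LTO1 formed another higher run. MYEOV, a gene often amplified with cyclin D1, read 8.51 and 8.43 in ES-2, 4.12 and 4.06 in OVCAR-3 and 5.02 and 6.65 in SKOV-3. LTO1, a ribosome maturation factor, read 6.75 and 6.65 in ES-2 and at most 4.93 elsewhere. Outside this run, IGHMBP2 (-0.29 and -0.15) and FGF19 (-0.19 and -0.04) showed no difference past the test. CCND1 lost its place in the run without the ES-2 miR-blank array (1.22 from SKOV-3), the SKOV-3 miR-blank array (0.83) or the OVCAR-3 miR-135a-3p array (1.21 from OVCAR-3).

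Also on chromosome 11, the ETS factor genes ETS1 and FLI1 and the non-coding SENCR were higher together, FLI1 and SENCR having passed the filter through ES-2 only. FLI1, a factor of blood and endothelium, read 6.99 and 6.87 in ES-2, 3.86 and 3.98 in OVCAR-3 and 3.83 and 3.85 in SKOV-3. SENCR read 6.05 and 6.36 in ES-2 and at most 3.94 elsewhere, but it overlaps FLI1 on the other strand, so whether it was measured apart from FLI1 is uncertain. ETS1 read 8.57 and 8.37 in ES-2, 4.47 and 4.60 in OVCAR-3 and 6.85 and 7.63 in SKOV-3. Its call against SKOV-3 was lost without the ES-2 miR-blank array (0.91, limma adjusted p 0.111), and without the SKOV-3 miR-blank array the difference was 0.83. ARHGAP32, the next tested gene, was lower in ES-2 instead, by 0.77 than in OVCAR-3 and by 1.35 than in SKOV-3.

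On chromosome 5, PRR16, SRFBP1 and LOX were higher, and the genes on either side, HSD17B4 (-0.02 and 0.11) and SNX2 (-0.28 and 0.01), were not. SRFBP1, a cofactor of serum response factor, read 8.44 and 8.78 in ES-2 and at most 6.88 elsewhere. PRR16, a regulator of cell size, read 7.06 and 7.12 in ES-2 and at most 4.69 elsewhere. On chromosome X, NRK, PWWP3B and RADX were higher. RADX, which acts at replication forks, read 6.53 and 6.65 in ES-2, 3.17 and 3.38 in OVCAR-3 and 4.36 and 3.44 in SKOV-3. The 3 genes of this run passed the filter through ES-2 only.

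On chromosome 2, HOXD4, HOXD3 and LINC01116 were higher, the latter 2 having passed the filter through ES-2 only. HOX genes give positional identity along the body axis and are held in clusters. Of 22 tested HOX genes, the higher 2 were HOXD3 and HOXD4 (4.36% over all genes tested), and 8 were lower than in OVCAR-3 (7.53%). HOXD3 read 5.45 and 5.57 in ES-2, 4.05 and 4.0 in OVCAR-3 and 4.22 and 4.15 in SKOV-3, and HOXD4 read 6.63 and 6.37 in ES-2, 5.36 and 5.50 in OVCAR-3 and 5.29 and 5.25 in SKOV-3. The ES-2 arrays lay above the rest for both. HOXD4 lost its call against OVCAR-3 without the ES-2 miR-blank array (0.92, limma adjusted p 0.0625) or the OVCAR-3 miR-blank array (0.93, limma adjusted p 0.0762). LINC01116, a long non-coding RNA, read 6.50 and 5.65 in ES-2 and at most 4.67 elsewhere. It lost its call against OVCAR-3 without the OVCAR-3 miR-blank array (2.27, limma adjusted p 0.0589) or the OVCAR-3 miR-135a-3p array (2.36, limma adjusted p 0.0534), and against SKOV-3 without the ES-2 miR-blank array (1.18, limma adjusted p 0.0523).

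**Figure D4:**
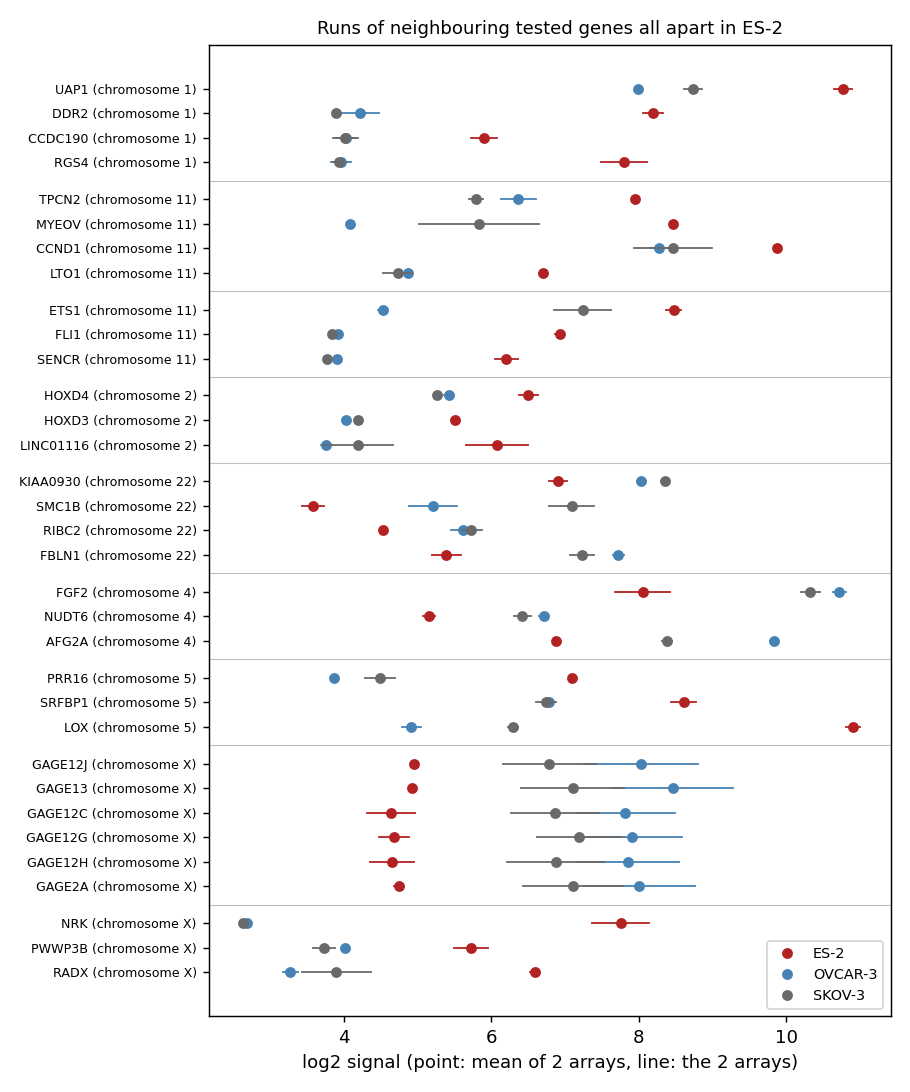
Log2 signal of the 33 genes in the 9 runs of neighbouring genes, with a point for the mean of a line's 2 arrays and a bar joining them. ES-2 (red) stands to the right in the 6 higher runs and to the left in the 3 lower runs.

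Lower runs lay on chromosomes 4, 22 and X. FGF2, NUDT6 and AFG2A, neighbours on chromosome 4, were lower in ES-2. AFG2A, an ATPase of ribosome maturation, read 6.84 and 6.91 in ES-2, 9.78 and 9.88 in OVCAR-3 and 8.31 and 8.45 in SKOV-3. NUDT6 read 5.24 and 5.08 in ES-2 and at least 6.30 elsewhere, but it overlaps FGF2 on the other strand, and the signals of the pair may share transcripts. On chromosome 22, KIAA0930, SMC1B, RIBC2 and FBLN1 were lower. SMC1B, a cohesin subunit of meiosis, read 3.73 and 3.43 in ES-2, 4.88 and 5.54 in OVCAR-3 and 6.78 and 7.40 in SKOV-3, and lost its call against OVCAR-3 without the OVCAR-3 miR-135a-3p array (-1.38, limma adjusted p 0.0657). RIBC2 read 4.56 and 4.49 in ES-2 and at least 5.46 elsewhere, and lost its calls without the ES-2 miR-135a-3p array (-0.91 and -1.02, limma adjusted p 0.0641 and 0.0515) or the OVCAR-3 miR-135a-3p array (-0.98, limma adjusted p 0.0735). The run on chromosome X consisted of 6 GAGE genes, cancer-testis antigens of near-identical sequence, which read between 4.32 and 4.97 in ES-2 and between 6.16 and 9.27 in the other lines. Their probes cannot be taken to measure the copies separately, so this run may stand for a single signal.

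The genes apart were unevenly spread over chromosomes. Chromosome 19 had 712 tested genes, of which 4 were higher (0.56%) and 41 lower (5.76%), against 4.36% and 2.71% of all genes tested. This chromosome carries many zinc finger genes, and of its 136 tested ZNF genes limma put 0 higher (0 also at an unadjusted p under 0.05 against both lines) and 9 lower (6.62%), while of the other 576 genes 4 were higher and 32 lower (5.56%). Both kinds of gene thus leaned the same way. Their median differences were -0.28 and -0.28 for the ZNF genes, and -0.19 and -0.13 for the other genes. The largest share of lower genes was on chromosome X, 17 of 267 (6.37%), but 6 of the 17 were the near-identical GAGE genes, and 18 genes there were higher (6.74%). Chromosome 22 had 13 of 230 lower (5.65%) and 4 higher (1.74%). Higher genes were most frequent on chromosome 18, with 11 of 128 (8.59%), and on chromosome 5, with 33 of 402 (8.21%). The shares of higher genes include genes that passed the filter through ES-2 only, 136 of the 390 in all. Such genes had to exceed the mean of the other lines in ES-2, so nothing is read from the order of chromosomes by higher genes. Copy number was not analysed here.

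**Figure D5:**
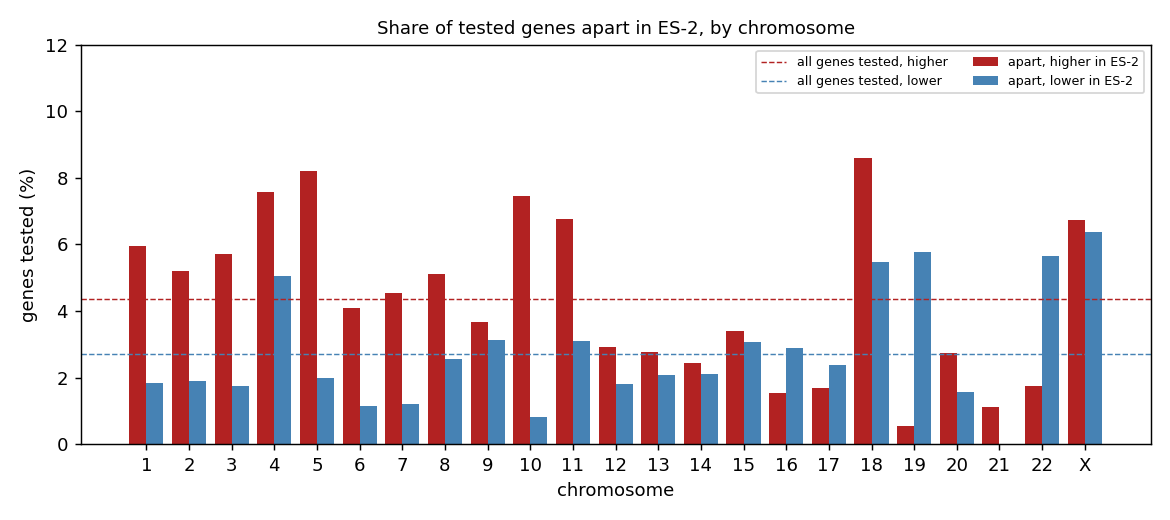
Share of tested genes (in percent) on each chromosome that were higher (red) or lower (blue) than both other lines in ES-2, with dashed lines at the shares over all genes tested, 4.36% and 2.71%. Chromosome 19 has the lowest red bar, 0.56%, and chromosomes 19, 22 and X have blue bars above 5.6%.

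The genes apart also varied between the 2 ES-2 arrays. The difference between the ES-2 arrays had a median size of 0.26 among higher genes and 0.30 among lower genes, against 0.15 over all genes tested. It reached 2-fold in 12 higher and 18 lower genes, and in 78 of all genes tested. With 1 array per transfection, a response to miR-135a-3p in ES-2 cannot be told apart from scatter between arrays. The widest gaps were in SERINC2, LGR5, LRRC17, CPPED1, SPP1 and LRP5. LGR5, a receptor for R-spondins and a stem cell marker of the gut, read 7.20 and 5.32 in ES-2 and at most 3.03 elsewhere, so both arrays were clear of the other lines. SERINC2, a membrane protein, read 10.04 and 7.95 in ES-2 and at most 7.25 elsewhere. Its call against SKOV-3 was lost without the ES-2 miR-blank array (1.05, limma adjusted p 0.0695) and against OVCAR-3 without the OVCAR-3 miR-blank array (1.66, limma adjusted p 0.0996). LRP5, a Wnt coreceptor, read 6.50 and 4.78 in ES-2 and at least 7.38 elsewhere, and lost its call against OVCAR-3 without the OVCAR-3 miR-135a-3p array (-1.41, limma adjusted p 0.138). LRRC17 read 6.79 and 4.95 in ES-2 and at most 3.05 elsewhere, and lost its call against OVCAR-3 without the OVCAR-3 miR-blank array (2.51, limma adjusted p 0.0604). CPPED1, a phosphatase, read 6.56 and 4.72 in ES-2 and at least 7.18 elsewhere. Its call against OVCAR-3 was lost without the ES-2 miR-135a-3p array (-0.69, limma adjusted p 0.166), the OVCAR-3 miR-blank array (-2.22, limma adjusted p 0.0607) or the OVCAR-3 miR-135a-3p array (-1.07, limma adjusted p 0.288). SPP1 lost its call against SKOV-3 without either OVCAR-3 array (-3.69, limma adjusted p 0.0512). Within each transfection taken alone, 307 of the 390 higher and 158 of the 243 lower genes were at least 2-fold from both lines.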

How the data were processed

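The deposited table held log2 signals of 53617 probe sets on 6 arrays. The submitters' processing notes name RMA, Expression Console 1.4 and Transcriptome Analysis Console 3.0. RMA makes array distributions equal, which would remove a shift of most genes. Of the probe sets, 16098 had 1 gene symbol, all matched to RefSeq genes of GRCh38.p14 by Entrez identifier, and 37519 were unnamed here. For 779 of 14884 symbols with more than 1 probe set, that with the highest mean was kept. Genes with a mean of at least 5 over the 6 arrays or in ES-2 were tested.

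limma 3.58.1 in R 4.3.3 (lmFit, eBayes, two-sided, Benjamini-Hochberg over all genes tested) was fitted with line in 3 levels and transfection as a block, which pairs arrays across lines and leaves 2 residual degrees of freedom. The procedure was tested on simulated data. Members, lists and tests were chosen with earlier results of these data known. Named by rule were the markers, the 15 protein-coding genes in each direction with the largest smaller difference, up to 4 members per list and direction, runs of neighbours and the 6 genes with the widest ES-2 gap. Chosen after their values were seen were BGN, EFEMP2, MMP14, BMP4, HBEGF, PDGFD, MYOF, AMOTL2, TEAD2, LINC00624 and the genes not apart from both lines. Alternatives were no block, other filters, normalizations and fits, and each array left out.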

Additional observations from a re-analysis of the deposited data

Results flagged for a closer look

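SPP1, which encodes osteopontin, moved in opposite directions between the arrays of different lines. The difference miR-135a-3p minus miR-blank was -1.73 in ES-2 and 2.48 in SKOV-3. SAGE1, a cancer-testis antigen, showed the same contrast, with -1.01 in ES-2 and 2.58 in SKOV-3. Each value rests on 1 array per transfection, and the difference between the lines was not tested.

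Probe sets without a gene name here were left out of the gene comparisons. Of 10896 of them that passed the same filter, 366 were higher in ES-2 than in both other lines (3.36%) and 166 lower (1.52%) by limma.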

How the results depend on the processing

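Of 4682 combinations of a named gene's difference and an alternative, 4298 were counted as unchanged. Another 381 kept the direction without passing, 3 passed newly and 0 reversed. Unchanged means the same direction and the same side of the threshold, except with the arrays of a single transfection. Those settings, miR-blank arrays only and miR-135a-3p arrays only, had no test. The 226 unchanged differences of each therefore show a kept direction alone. Without the replicate block for transfection, 391 genes were higher than both lines and 242 lower, of which 388 and 242 were among the 390 and 243, and of the named genes only BGN and TEAD2 lost a call, both against SKOV-3 (limma adjusted p 0.118 and 0.141). With only the genes of a mean of at least 5 over the 6 arrays, 254 were higher (51.1% of those apart). At a threshold of at least 4-fold, 162 were higher and 58 lower (73.6% higher, against 61.6%), and 615, 370 and 404 were called against OVCAR-3, SKOV-3 and their mean, in place of 1602, 1196 and 1240. Over all probe sets the counts were 766, 402, 2985, 2374 and 2323. With the other lines pooled in a 2-group fit, 256 were higher and 116 lower, of which 248 and 115 were among the main genes. Without variance moderation limma called 0 genes against either line, hence 0 higher and 0 lower, and 10 against the mean; the smallest adjusted p was 0.0514 against OVCAR-3 and 0.0506 against SKOV-3, while 2607 and 2182 genes had an unadjusted p under 0.05, and 296 higher and 156 lower genes had one against both lines at 2-fold. The adjusted calls against either line thus rest on sharing the variance between genes. With at least 2-fold within each transfection as well, an alternative chosen after seeing the data, 158 genes were lower. Leaving out each array in turn gave 337 to 437 higher and 174 to 254 lower genes, 1242 to 1627 called against OVCAR-3, 1108 to 1432 against SKOV-3 and 1178 to 1321 against the mean. Without an array its line has 1 left, which is assumed to vary like the others. The other alternatives (remaining filters, 3 normalizations, an intensity trend, the mean over probe sets) left every count within 1.5 times. The arrays carry no detection calls, so signals near the array median limit the precision of the largest folds.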
